A study of Mus musculus with 6 samples.

Results

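Desmosomes are the spot-like junctions that tie the keratin filaments of neighbouring epithelial cells together. The RNA of 10 mouse genes of this junction (Dsp, Jup, Pkp1, Pkp2, Pkp3, Dsg2, Dsg3, Dsc2, Dsc3 and Perp) was read in every library of the study, out of 54532 genes in the deposited table. The genes were found in the table by symbol, and each symbol matched 1 gene. The 6 libraries came from Balb/c mice that carried 2208L, a mammary tumour model grown by transplantation. Of these, 3 were made from circulating tumour cells grown out of peripheral blood (CTC) and 3 from tumour cells enriched after the primary tumour of the matched mouse had been taken apart (PT). All libraries were labelled as cancer cells that received no treatment, and no age or genotype of the mice was given. Only the CTC cells were described as propagated, so growth outside the mouse and origin from blood cannot be told apart in the CTC group.

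In a desmosome, cadherins of the desmoglein (Dsg) and desmocollin (Dsc) families cross the membrane and bind those of the next cell. Inside the cell they bind plakoglobin (Jup) and the plakophilins (Pkp1 to Pkp3), and desmoplakin (Dsp) connects these plaque proteins to keratin filaments. Perp is a tetraspan membrane protein found in the desmosomes of stratified epithelia. In simple epithelia Dsg2 and Dsc2 are the usual cadherins and Pkp2 the usual plakophilin. Dsg3, Dsc3 and Pkp1 are typical of stratified and basal epithelial layers. Clusters of circulating tumour cells are known to be held together by cell junctions, and plakoglobin is among the proteins linked to them. The comparison asks whether genes of this junction differed between tumour cells from blood and those of the tumour.

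The stretch before the transcription start is given for only 2 of the 10 genes, Dsp and Jup, the linkers at the core of the plaque. The 250 bases upstream of the RefSeq start are shown (GRCm38.p6), with capitals marking each GC box (GGGCGG or CCGCCC) and each CCAAT box (CCAAT or ATTGG), so that the promoters of these highly expressed genes can be read beside their levels. The Dsp stretch lies at chr13:38151044-38151293 on the plus strand and the Jup stretch at chr11:100397791-100398040 on the minus strand.
Dsp: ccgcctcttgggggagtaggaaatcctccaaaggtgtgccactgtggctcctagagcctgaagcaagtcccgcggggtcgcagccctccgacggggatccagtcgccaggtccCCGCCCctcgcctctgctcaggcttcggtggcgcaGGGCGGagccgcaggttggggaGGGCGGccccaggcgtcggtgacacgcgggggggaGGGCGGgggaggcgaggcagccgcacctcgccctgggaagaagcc
Jup: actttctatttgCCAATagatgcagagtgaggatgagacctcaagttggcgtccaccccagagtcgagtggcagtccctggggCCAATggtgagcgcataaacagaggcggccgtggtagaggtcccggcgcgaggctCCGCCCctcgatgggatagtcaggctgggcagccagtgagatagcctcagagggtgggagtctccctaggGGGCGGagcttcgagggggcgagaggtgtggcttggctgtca
The GC box occurred 4 times upstream of Dsp and 2 times upstream of Jup, and 32.7% of 32851 mouse promoter stretches of this length held at least 1. Jup also held 2 CCAAT boxes, a motif present in 33.8% of these stretches, and Dsp held none. GC content was 72.4% for Dsp and 62% for Jup, against a median of 52.4%. Neither stretch held the E-box CAGGTG (reverse CACCTG), which was found in 17.2% of the stretches, the TATA box TATAAA (12.4%) or the letters AACCGGTT (0.116%). All motifs were searched on both strands, and a match is a match of letters only.

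Library totals ranged from 23845953 to 27897320 counts, and values below are CPM (read counts relative to library size, with TMM scaling for library composition). A count of 3 corresponded to between 0.107 and 0.129 CPM, a floor that covers counting error only, since PCR copies cannot be told from separate molecules in these counts. Epithelial transcripts were abundant in all libraries, with the 8 luminal and simple epithelial markers (Krt7, Krt8, Krt18, Krt19, Epcam, Cdh1, Elf3 and Esrp1) summing to between 2805 and 8019 CPM in CTC and between 5470 and 6849 CPM in PT. Markers of cell types other than epithelium were low beside these. The 8 leukocyte markers summed to at most 20.4 CPM in CTC, nearly all of it Csf1r, with a PT maximum of 2.06 CPM and Ly6g and Adgre1 at 0 counts. The 7 endothelial markers summed to at most 3.73 and 1.65 CPM with Prox1 at 0 counts, and the 7 fibroblast markers ranged from 8.80 to 58.5 CPM (CTC) and from 17.8 to 71.8 CPM (PT), mainly from Dcn and Pdgfra, with Lum at 0 counts. Because these are bulk libraries, fewer cells that express a gene and less RNA per cell cannot be told apart.

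Per kilobase of the deposited gene length, Perp, Jup, Pkp1 and Pkp3 were the most abundant desmosome transcripts and the cadherins the scarcest. The mean level over the 6 libraries was 123.5 CPM per kilobase for Perp (lowest 93.2, highest 195), 61.8 for Jup, 49.9 for Pkp1, 43.7 for Pkp3, 21.7 for Dsp and 8.76 for Pkp2. It was 3.62 CPM per kilobase for Dsg3, 2.41 for Dsg2 and 2.18 for Dsc2. Together the 4 cadherin genes made up between 0.899% and 4.18% of the summed level per kilobase of all 10 genes in any library, while the 3 plakophilins made up between 22.6% and 40.1%. The order between neighbours was not fixed: the ranges of each gene and the next overlapped in every case except Dsc2 and Dsc3. Perp lay above Jup in 5 of 6 libraries, Pkp2 above Dsg3 in 3 of 6 and Dsg3 above Dsg2 in 3 of 6. The deposited length leaves out introns but how isoforms enter it is not stated, so isoform use can shift a gene on this scale.

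**Figure D1:**
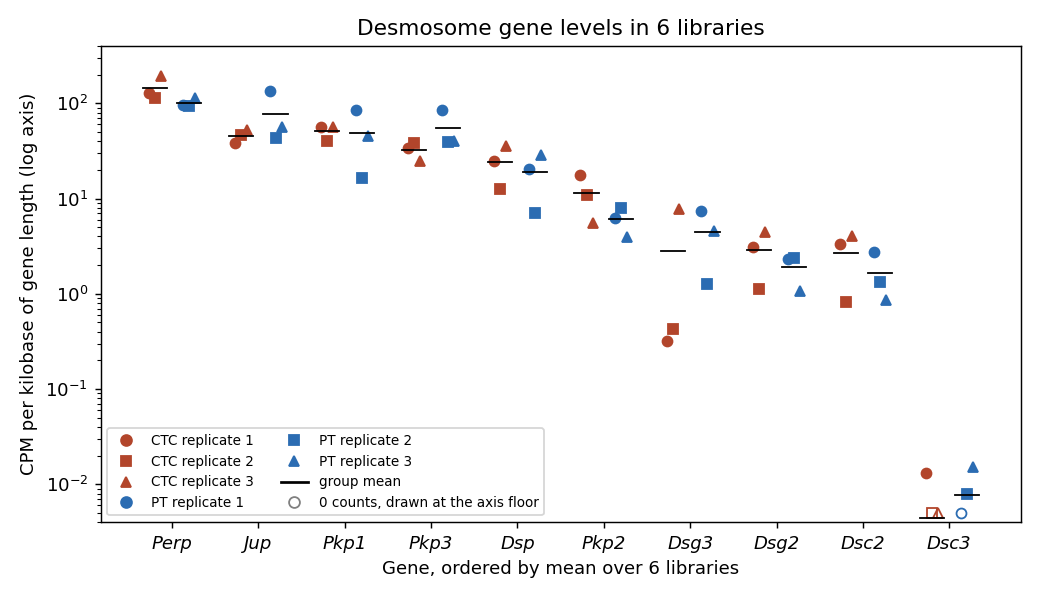
CPM per kilobase of gene length on a log axis for the 10 desmosome genes, with 1 point per library (red CTC, blue PT, symbol by replicate) and bars at the group means. Perp leads with a mean of 123.5 over the 6 libraries, the cadherins lie below the plaque genes in mean level, and Dsc3 is near 0 throughout (open symbols mark 0 counts).

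The cadherin pair of simple epithelia, Dsg2 and Dsc2, was present in all libraries at low levels. Dsg2, the desmoglein found in all desmosome-bearing tissues, was at 25.6, 9.34 and 37.0 CPM in CTC replicates 1, 2 and 3, against 19.2, 19.7 and 8.84 CPM in PT replicates 1, 2 and 3. Dsc2, its widely expressed desmocollin partner, was at 17.5, 4.335 and 21.1 CPM in CTC, against 14.45, 7.04 and 4.52 CPM in PT. Both genes were highest in CTC replicate 3 and next highest in CTC replicate 1, both had their 2 lowest values in CTC replicate 2 and PT replicate 3, and the groups overlapped for each. The log2 fold change (CTC minus PT) was 0.59 for Dsg2 (SE 0.55, 95% interval -0.67 to 1.85) and 0.72 for Dsc2 (SE 0.66, 95% interval -0.80 to 2.24). In the quasi-likelihood test of edgeR the adjusted p was 0.797 for Dsg2 and 0.793 for Dsc2. Without CTC replicate 3 the log2 fold changes were 0.13 and 0.33, and without replicate 3 of both groups they were -0.16 and 0.02. Per kilobase the ratio of Dsg2 to Dsc2 stayed between 0.848 and 1.79 across the 6 libraries.

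Dsg3, the desmoglein of basal and stratified epithelia, varied most of the 9 genes that could be tested. It had 37, 42 and 811 counts in CTC replicates 1, 2 and 3 and 794, 122 and 453 counts in PT replicates 1, 2 and 3. In CPM the CTC libraries were at 1.31, 1.75 and 31.7 and the PT libraries at 30.4, 5.24 and 18.8. CTC replicate 3 and PT replicate 1 were the highest libraries, CTC replicates 1 and 2 the lowest, and the highest library was 24.2-fold above the lowest. Among 9396 protein-coding genes whose average log2 CPM was 3 or more, 97.5% had a smaller SD over the 6 libraries, and the median gene had a highest library 2.215-fold above its lowest. The difference between the groups was -0.65 on the log2 scale (SE 1.19, 95% interval -3.39 to 2.09; edgeR adjusted p = 0.890). Without CTC replicate 3 it was -3.57 (adjusted p = 0.179), while without replicate 1 of both groups it was 0.49, so its size and sign rested on these libraries.

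The makeup of the cadherin genes differed among libraries. Dsg3 held 4.74% and 17.9% of the summed cadherin level per kilobase in CTC replicates 1 and 2 but 47.7% in CTC replicate 3. In PT it held 59.4%, 25.5% and 70.2% in replicates 1, 2 and 3. The share lay between 4.74% and 47.7% in CTC and between 25.5% and 70.2% in PT, so the groups overlapped. Dsc3, the desmocollin usually found with Dsg3 in basal layers, was nearly absent from all libraries, with 2, 0 and 0 counts in CTC and 0, 1 and 2 counts in PT. No library exceeded 3 counts, and Dsc3 was the only member that did not pass the filter on low counts. Dsc1 had 3 counts in CTC replicate 3 and 0 elsewhere, so Dsc2 was the only desmocollin above 3 counts in any library.

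**Figure D2:**
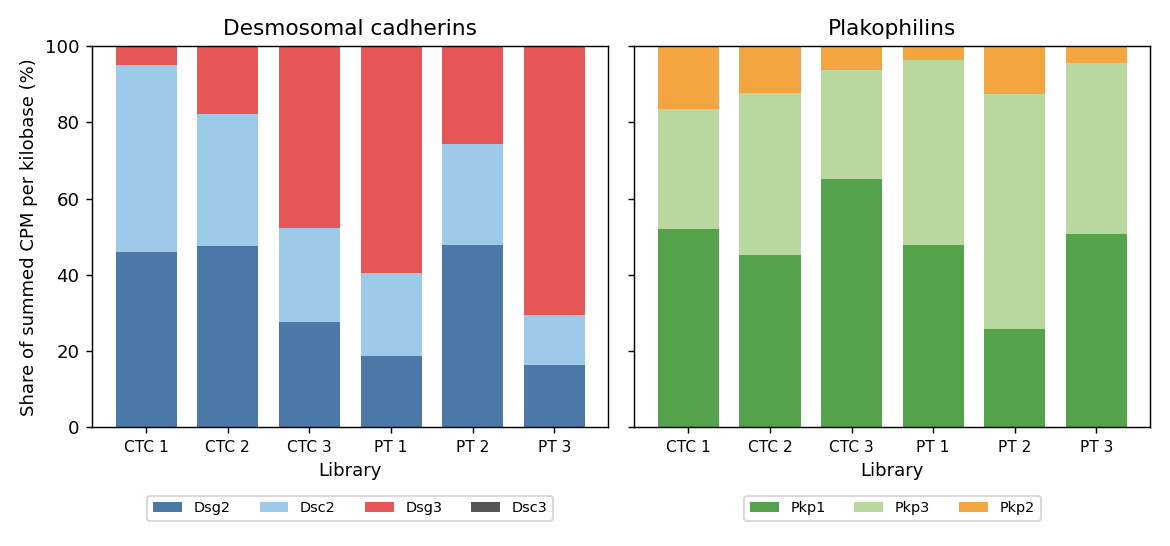
Share of the summed CPM per kilobase held by each gene within the desmosomal cadherins (left) and the plakophilins (right), in percent, for each of the 6 libraries. Dsg3 ranges from 4.74% in CTC replicate 1 to 70.2% in PT replicate 3, and Pkp2 is the smallest plakophilin share in every library.

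The level of Dsg3 was read beside genes listed as basal markers, a comparison chosen after the values were seen. Trp63, the transcription factor of basal epithelium, was at 0.710, 9.05 and 150.7 CPM in CTC replicates 1, 2 and 3, against 60.3, 28.8 and 93.7 CPM in PT. Both Dsg3 and Trp63 were highest in CTC replicate 3 and lowest in CTC replicate 1, and only PT replicates 1 and 3 changed places between the 2 orders. Krt14, a basal keratin, was at 188, 294 and 1239 CPM in CTC, against 5266, 358 and 836 CPM in PT. Krt6a, a keratin of stressed and stratified epithelia, was at 68.5, 17.7 and 518.8 CPM in CTC, against 1118, 86.2 and 430.6 CPM in PT. CTC replicate 3, PT replicate 1 and PT replicate 3, the 3 highest libraries for Dsg3, were also the 3 highest for Trp63, Krt14 and Krt6a, but not for Krt5, Krt15 and Krt17, the other 3 of the 6 tested basal markers. Krt5, the keratin partner of Krt14 in basal cells, was at 0, 0.0417 and 6.69 CPM in CTC, against 876, 6.996 and 5.73 CPM in PT. Krt17 was lowest in PT replicate 3 (0.374 CPM), and Krt15 reached at most 1.92 CPM, higher in CTC replicate 2 than in CTC replicate 3. The listed markers thus split in whether they shared the 3 highest libraries of Dsg3. Krt5 did share its 2 lowest libraries, CTC replicates 1 and 2, with Dsg3, while Krt15 and Krt17 did not. Among 9395 protein-coding genes ordered by the root mean square difference of centred log2 CPM, Krt6a was the 14th closest to Dsg3, Krt14 the 24th and Trp63 the 103rd, while Krt5 ranked 9251st. This difference grows with the range of a gene as well as with its order of libraries, and Krt5 ran from 0 to 876 CPM. No rank is given for Krt15 or Krt17. The 9 basal and myoepithelial markers together summed to between 259 and 1924 CPM in CTC and between 490 and 7397 CPM in PT, with 6 of the 9 tested and none at 0 counts in all libraries, but Acta2, Myh11 and Oxtr, markers of contractile myoepithelium, reached at most 0.533, 0.417 and 1.41 CPM. Whether a changed share of basal-like cells lies behind the level of Dsg3 was not tested.

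**Figure D3:**
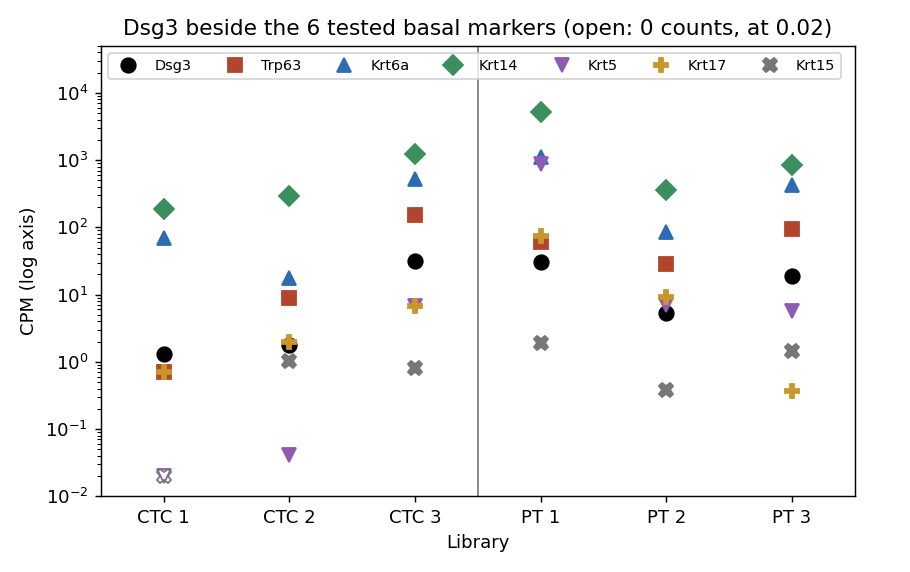
CPM on a log axis for Dsg3 and the 6 tested basal markers in each of the 6 libraries, with open symbols near the axis floor for 0 counts. Dsg3, Trp63, Krt6a and Krt14 have their 3 highest values in CTC replicate 3, PT replicate 1 and PT replicate 3 (31.7, 30.4 and 18.8 CPM for Dsg3), whereas Krt5, Krt15 and Krt17 do not.

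Plakoglobin, the armadillo protein shared by desmosomes and adherens junctions, was the most abundant linker. Jup was at 244, 302 and 339 CPM in CTC replicates 1, 2 and 3, against 858, 278 and 366 CPM in PT replicates 1, 2 and 3. PT replicate 1 stood above all other libraries, which lay within 244 and 366 CPM, and the groups overlapped. The log2 fold change was -0.76 (SE 0.44, 95% interval -1.78 to 0.25; edgeR adjusted p = 0.727), it was -0.12 without PT replicate 1 and 0.01 without replicate 1 of both groups. The 20 tested genes nearest Jup lie on a stretch of chromosome 11 with the keratin genes Krt13, Krt14, Krt15, Krt16, Krt17 and Krt19. Their median deviation from their own means on the log2 scale was 0.65 in PT replicate 1 and -0.48 in CTC replicate 1. Jup itself deviated by 1.25 and -0.56 in these libraries. Not every neighbour followed: Krt19 deviated by 0.30 in PT replicate 1 and by 4.42 in CTC replicate 1.

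Desmoplakin, which anchors keratin filaments to the plaque, followed another pattern. Dsp was at 242, 120.4 and 347 CPM in CTC, against 199, 67.9 and 279.6 CPM in PT, lowest in both replicates numbered 2. The highest library was 5.11-fold above the lowest and the groups overlapped. The group difference on the log2 scale was 0.38 (SE 0.56, 95% interval -0.91 to 1.67; edgeR adjusted p = 0.863), and leaving out CTC replicate 3 or PT replicate 2 gave -0.01 and -0.03. The ratio of Jup to Dsp per kilobase ranged from 1.47 in CTC replicate 3 to 6.48 in PT replicate 1, so the linkers did not keep 1 proportion across the libraries. The median deviation of the 20 nearest tested genes around Dsp on chromosome 13 lay between -0.21 and 0.13 in the 6 libraries.

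The plakophilins were led by Pkp1 and Pkp3, and Pkp2 was the scarcest of the 3 in every library. Pkp1, a plakophilin typical of stratified epithelia, was at 281, 202 and 286 CPM in CTC, against 424, 82.4 and 229 CPM in PT. PT held both the highest library (replicate 1) and the lowest (replicate 2), with all CTC libraries between them, and the log2 fold change was 0.06 (SE 0.53, 95% interval -1.16 to 1.29; edgeR adjusted p = 0.981). Leaving out single libraries or matched pairs moved it between -0.37 and 0.72.

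Pkp3, the plakophilin present in most epithelial desmosomes, was the gene of the set whose CTC libraries all lay below PT. It was at 122.5, 137 and 90.2 CPM in CTC, against 309, 143 and 146 CPM in PT. The gap between the groups was narrow, from 137 CPM in the highest CTC library to 143 CPM in the lowest PT library. The log2 fold change was -0.77 (SE 0.37, 95% interval -1.63 to 0.09; edgeR adjusted p = 0.726, unadjusted p = 0.0732), and -0.30 without PT replicate 1. The 20 nearest tested genes around Pkp3 on chromosome 7 had median deviations of -0.57, -0.17 and -0.08 in CTC replicates 1, 2 and 3 and of 0.61, 0.39 and 0.10 in PT, also lower in each CTC library than in each PT library. How often 20 neighbouring genes separate the groups elsewhere was not measured, and the part of these neighbours in the value of Pkp3 was not tested.

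Pkp2, the plakophilin of simple epithelia and heart, was at 95.4, 58.3 and 29.9 CPM in CTC, against 33.8, 43.0 and 21.4 CPM in PT. CTC replicates 1 and 2 were its highest libraries, the same libraries in which Dsg3 was lowest, and CTC replicate 3 lay within the PT range. The log2 fold change was 0.90 (SE 0.46, 95% interval -0.16 to 1.97; edgeR adjusted p = 0.726, unadjusted p = 0.0868), and 0.43 without CTC replicate 1. Within the plakophilins Pkp2 made up 16.5%, 12.2% and 6.38% of the level per kilobase in CTC and 3.58%, 12.6% and 4.43% in PT. The ratio of Pkp3 to Pkp2 per kilobase was 1.90, 3.49 and 4.47 in CTC and 13.5, 4.91 and 10.1 in PT, lower in each CTC library than in each PT library. This ratio was formed after the levels were seen and carries no test. Pkp3 alone was already lower in each CTC library. The other ratios formed between members, Pkp1 to Pkp2, Dsg2 to Dsg3, Jup to Dsp and Dsg2 to Dsc2, overlapped between the groups.

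Perp, a target of p53 and p63 in mouse and a component of desmosomes in stratified epithelia, was the steadiest of the set. It was at 252, 222 and 381 CPM in CTC, against 189, 182 and 221 CPM in PT. Every CTC library lay above every PT library, but CTC replicate 2 exceeded PT replicate 3 by less than 1 CPM. The log2 fold change was 0.53 (SE 0.29, 95% interval -0.14 to 1.20; edgeR adjusted p = 0.726, unadjusted p = 0.105), and 0.26 without CTC replicate 3. Its highest library was 2.09-fold above its lowest, and 39.8% of the 9396 genes had a smaller SD. For the 8 other tested members that share lay between 74.2% and 97.5%.

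No desmosome gene passed the test between CTC and PT. Of the 9 genes tested, edgeR called 0 at an adjusted p under 0.05, as it did for all genes (0% of 13874), and at an unadjusted p under 0.05 it gave 0 of 9 against 6.62% of all genes. With the replicate number as a block, which ties the libraries of a mouse together, edgeR called 0 of 9 and also 0% of all genes; the smallest adjusted p among the 9 was 0.766. DESeq2 called 0 of 9 against 0.631% of all genes, and 0 of 9 against 1.87% with the block, where the smallest adjusted p of the set was 0.360 (Dsg3). Over the 9 genes the 95% intervals reached from -3.39 to 2.24 on the log2 scale. With 3 libraries a group, differences within a gene's interval remained compatible with the data. The log2 fold change was positive for 6 genes and negative for 3, with a median of 0.38 against 0.053 for all genes tested. That median was -0.01 without CTC replicate 3, -0.03 without PT replicate 2 and -0.07 without replicate 3 of both groups. The groups did not overlap for 2 of 9 genes (Perp and Pkp3, in opposite directions), against 12.1% of all genes tested.

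**Figure D4:**
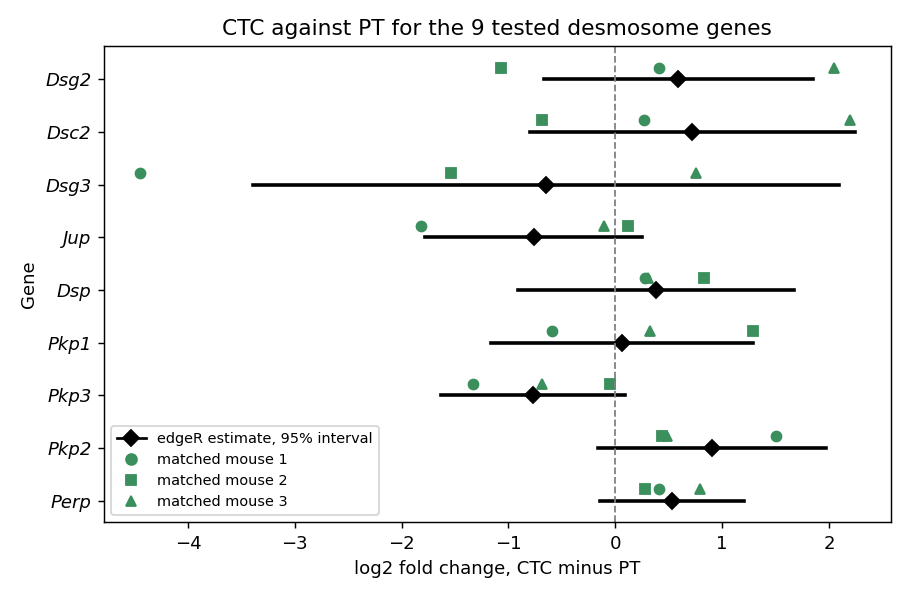
Log2 fold change of CTC minus PT for the 9 tested desmosome genes, with black diamonds and lines for the edgeR estimate and its 95% interval and green symbols for the difference within each matched mouse. Every interval includes 0, and the widest is that of Dsg3 (-3.39 to 2.09).

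Within the matched mice, 4 of 9 genes differed in the same direction in all 3 pairs, against 30.7% of all genes tested. Dsp, Pkp2 and Perp were higher in the CTC library of each mouse and Pkp3 was lower. For Dsp the CTC library was 1.22-fold, 1.77-fold and 1.24-fold above the PT library in mice 1, 2 and 3. For Pkp2 it was 2.83-fold, 1.36-fold and 1.40-fold above, and for Perp 1.33-fold, 1.22-fold and 1.72-fold. Pkp3 in CTC was at 0.397, 0.964 and 0.619 of its level in PT, so in mouse 2 the libraries were nearly equal. The cadherin genes went in different directions: Dsg2 and Dsc2 were 4.18-fold and 4.66-fold higher in CTC in mouse 3 but at 0.473 and 0.616 of the PT level in mouse 2, and Dsg3 was at 0.0432 of the PT level in mouse 1 and 1.69-fold above it in mouse 3.

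The desmosome genes did not share 1 highest library. CTC replicate 3 was the highest library for 5 of the 9 genes (Dsp, Dsg2, Dsg3, Dsc2 and Perp) and the lowest for Pkp3. PT replicate 1 was the highest for Jup, Pkp1 and Pkp3 and the lowest for none. PT replicate 2 was the lowest for Dsp, Pkp1 and Perp, and neither it nor CTC replicate 2 was the highest for any member. The median deviation of the 9 genes from their own means was 0.71 on the log2 scale in CTC replicate 3, 0.60 in PT replicate 1 and 0.32 in CTC replicate 1. It was -0.25 in CTC replicate 2 and -0.37 in PT replicate 2. The median of all tested genes stayed between -0.031 and 0.041 in every library. TMM scaling keeps that value near 0, so it does not show how far a set of 9 genes can stray. The 20 tested genes nearest Jup, for example, had a median deviation of 0.65 in PT replicate 1. Jup, Pkp1 and Pkp3 thus shared their highest library, while Dsg2 and Dsc2 shared their 2 highest and 2 lowest libraries.

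**Figure D5:**
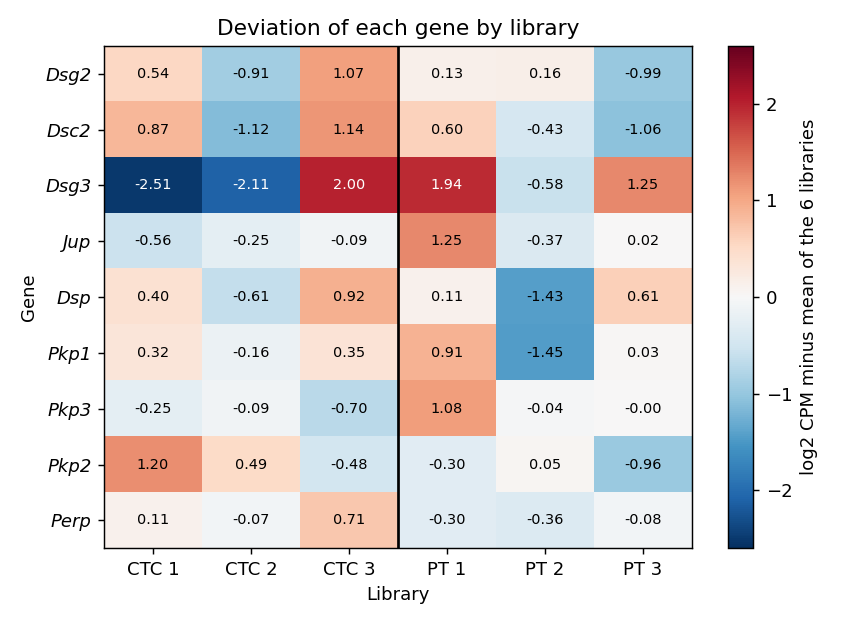
Log2 CPM of each tested desmosome gene in each library minus its mean over the 6 libraries (red above, blue below). CTC replicate 3 holds the highest value of 5 genes and PT replicate 1 that of Jup, Pkp1 and Pkp3, while Dsg3 spans -2.51 to 2.00.

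CTC replicate 3 also had the highest summed level of genes of differentiated skin, which came from some of them only. The 8 skin keratinocyte markers summed to 101.5 CPM there, in CTC replicates 1 and 2 to 7.63 and 13.3 CPM, and in PT to between 12.7 and 40.4 CPM. Krtdap, Ivl and Krt1 were at 29.8, 15.8 and 7.82 CPM in that library and at most 1.19 CPM elsewhere, and Sbsn was also highest there, at 31.1 CPM against 17.9 CPM in PT replicate 1. Krt10 was nearly level, at 3.64 CPM there and between 1.99 and 3.54 CPM elsewhere. Lor was higher in CTC replicate 2 (0.834 against 0.548 CPM), Cdsn was higher in PT replicate 1 (16.8 against 12.8 CPM), and Flg was at 0 counts in all libraries. Of the desmosomal cadherins of the upper epidermis, Dsg1b had 97 counts and Dsg1a 30 counts in CTC replicate 3. Elsewhere Dsg1b had at most 27 counts, in PT replicate 1, and Dsg1a had 0, though reads of these near-identical gene copies may be split between them. Dsg1c and Dsg4 had 0 counts in every library. The part of these transcripts in the high desmosome levels of CTC replicate 3 was not tested.

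The cadherin genes Dsc3, Dsc2, Dsg3 and Dsg2 sit in 1 cluster on chromosome 18, between 19960930 and 20604521 (GRCm38, as in the deposited table). They did not share 1 pattern, with Dsc3 near 0 counts, Dsg3 lowest in CTC replicate 1 and Dsg2 and Dsc2 second highest there. The 20 nearest tested genes outside the cluster, over 11.4 Mb, had median deviations of 0.24, -0.44 and 0.38 in CTC replicates 1, 2 and 3 and of -0.47, 0.19 and 0.40 in PT. The other members lie apart from each other on chromosomes 1 (Pkp1), 7 (Pkp3), 10 (Perp), 11 (Jup), 13 (Dsp) and 16 (Pkp2). Around Perp the median deviations of the 20 nearest tested genes were 0.35, 0.05 and 0.12 in CTC and -0.49, 0.02 and -0.30 in PT. Around Pkp2 they were 0.37, 0.18 and 0.10 in CTC and -0.25, 0.04 and -0.33 in PT. Both sets were higher in each CTC library than in each PT library. The margins were narrow, 0.05 against 0.02 around Perp and 0.10 against 0.04 around Pkp2. How often 20 neighbouring genes separate the groups elsewhere in the genome was not measured. Around Pkp1 they were 0, 0 and -0.02 in CTC and 0.20, -0.39 and 0.41 in PT, so the groups overlapped. The part of these neighbours in the values of the members was not tested. Genes that overlap a member were scarce, the most counted being 24 reads in 1 library for a transcript within Pkp1.

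Likeness to other genes was measured as the root mean square difference of centred log2 CPM over the 6 libraries, among 9395 protein-coding genes, and is given as a description. Dsc2 was the 12th closest gene to Dsg2 (0.352) and Dsg2 the 6th closest to Dsc2, the closest ranks between any members. The genes closest to Dsg2 were H2-D1 (0.22) and H2-Q4 (0.223), which encode MHC class I molecules, and Parp10 (0.247). The closest to Dsc2 were Pon3 (0.275), Tor3a (0.307) and Plod2 (0.311). For Dsg3 they were Hr (0.491), Gda (0.519) and Wnt4 (0.528), for Jup Mark4 (0.121), Zbtb45 (0.171) and Tmem63a (0.175), and for Perp Klhl11 (0.092), Trim26 (0.103) and Setdb1 (0.122). Jup and Pkp3 were each other's closest members at 0.326, and so were Dsp and Pkp1 at 0.503. Among all genes compared, Pkp3 ranked only 154th for Jup and Jup 351st for Pkp3. Pkp1 ranked 217th for Dsp and Dsp 105th for Pkp1. The closest member ranked 494th for Dsg3, 4974th for Pkp2 and 6047th for Perp, so many genes outside the set were closer.

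Of 23 further genes that belong to desmosomes, bind them or regulate them, 18 were tested and edgeR called 0 (1 had an unadjusted p under 0.05, Krt5, against 6.62% of all genes tested), with 6 positive and 12 negative log2 fold changes and a median of -0.20. The keratins that desmoplakin binds were the most abundant of them. Krt8 was at 2350, 1776 and 949.9 CPM in CTC, against 3006, 2112 and 1784 CPM in PT, and Krt18 at 1556, 976 and 674 CPM in CTC, against 996.5, 1276 and 1232 CPM in PT. Both were lowest in CTC replicate 3, in which Dsp was highest. Krt14, also among the most abundant of the list, was instead high there (1239 CPM), below only PT replicate 1 (5266 CPM). Plec, a cytolinker that binds keratin filaments, was at 278, 333 and 340.5 CPM in CTC, against 401, 116 and 287 CPM in PT. The groups did not overlap for 0 of the 18 genes, against 12.1% of all genes tested.

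Among genes of other junctions, edgeR likewise called 0 of 9 adherens junction genes (0 at an unadjusted p under 0.05; median log2 fold change 0.23, 5 positive and 4 negative). It called 0 of 9 hemidesmosome genes, of which 4 had an unadjusted p under 0.05, against 6.62% of all genes tested (median 0.24, 6 positive and 3 negative). Plec was counted both here and among the further desmosome genes above. Ctnnb1, the beta-catenin gene and a relative of Jup, was at 631.5, 600 and 689 CPM in CTC, against 531, 596.5 and 999 CPM in PT. The E-cadherin gene Cdh1 was at 565, 223 and 163 CPM in CTC, against 170, 152 and 239.5 CPM in PT. Among hemidesmosome genes, which fasten basal cells to the matrix, 3 of 9 did not overlap between the groups, against 12.1% of all genes tested. Dst was at 220, 74.0 and 120.3 CPM in CTC against 69.9, 29.1 and 24.3 CPM in PT, and Lama3 was also higher in each CTC library. Cd151 was lower, at 97.5, 130.4 and 208 CPM against 399, 258 and 210.5 CPM. DESeq2 called 1 hemidesmosome gene, Lama3 (adjusted p = 0.0155), against 0.631% of all genes. With the replicate block it called 3 of 9, Lama3, Dst (adjusted p = 0.000303) and Itgb4 (adjusted p = 0.0458), and 1 of 9 adherens genes, Cdh3 (adjusted p = 0.00701), against 1.87% of all genes. Unlike Lama3 and Dst, Itgb4 was lower in CTC on average, at 136, 112 and 222 CPM against 712.5, 196 and 466 CPM in PT. Cdh3 was higher on average, at 22.4, 13.8 and 2.93 CPM in CTC against 4.025, 4.035 and 0.0415 CPM in PT.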

How the data were processed

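RNA sequencing covered 6 libraries, 3 CTC and 3 PT, each built from 100 ng of total RNA with an mRNA kit, per the labels' protocols. The authors deposited raw read counts per Ensembl gene as whole numbers, with a gene length in bases. The submitters' processing notes name the aligner HISAT2 and the builds GRCm38 and mm10; for the read counter, strand setting and annotation release the sources used here give nothing. From these counts, TMM-scaled CPM and log2 CPM (prior count 2) were computed. The test was edgeR's quasi-likelihood test (version 4.0.16, R 4.3.3) with the default filterByExpr filter and Benjamini-Hochberg adjustment over 13874 genes at 0.05. Standard errors came from the F statistic. DESeq2 (version 1.42.0) and limma-voom (limma version 3.58.1) were alternatives. The fits were tested on simulated data.

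The titles match each PT library to the CTC library of the same number, and the series' design text says that the blood came from the matched mice, so the numbers pair the samples; across genes, their deviations from the group means correlated by -0.015, 0.157 and 0.298 in mice 1, 2 and 3. The main fit had no block. The members and gene lists were chosen with earlier results of these data known. All members were named, and of the other junction lists up to 4 genes by mean CPM and those without overlap. Krt5, Krt15, Krt17, Trp63, Krt6a, Dsg1 and Dsc1 genes, single markers of other cell types and the DESeq2 calls were named after their values were seen. Likeness took the 3 closest protein-coding genes whose average log2 CPM was 3 or more, and neighbours were the 10 nearest tested genes on each side. Promoter sequences are from RefSeq.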

Additional observations from a re-analysis of the deposited data

How the results depend on the processing

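The count of 0 desmosome genes called held under every alternative tried: edgeR with the replicate block, RLE and upper-quartile scaling, DESeq2 with and without the block, limma-voom, all genes with a count, only genes at 1 CPM or more in 3 libraries, and leaving out each library or matched pair. Over all genes, 0 were called in edgeR, also with the replicate block and without each library or pair, but 91 in DESeq2, 253 in DESeq2 with the block and 199 in edgeR without a filter on low counts; the cause was not tested. The median log2 fold change of the 9 genes was 0.46 with the replicate block, between 0.34 and 0.47 under the other scalings, tests and filters, and between -0.07 and 0.67 when libraries or pairs were left out. Under the same omissions the value ranged from -0.03 to 0.83 for Dsp, -1.09 to 0.01 for Jup, -0.37 to 0.72 for Pkp1, -0.16 to 1.14 for Dsg2 and -3.57 to 0.49 for Dsg3, each changing sign. Pkp2 (0.43 to 1.23), Pkp3 (-1.12 to -0.30), Dsc2 (0.02 to 1.31) and Perp (0.26 to 0.67) kept their sign. The block changed no call of a desmosome gene. With the block, the log2 fold change of Dsg3 was -1.71 and that of Pkp1 0.34. A matched pair left out leaves 2 libraries a group, and a single library left out leaves 2 in that group.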
